A study of Mus musculus with 18 samples.

Results

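The genes described here encode the core proteins of the small nuclear ribonucleoproteins (snRNPs) and their close relatives. They were chosen by name: every row whose gene name began with Snrp, Sf3a, Sf3b or Lsm followed by a digit was taken, and names ending in -ps were left out. This gave 35 of 15697 named genes. All 35 had an entry in the RefSeq annotation of GRCm38, 34 as protein coding and 1, Snrpert, as a pseudogene, and they lay on 13 chromosomes. By role they were 8 Sm ring genes, 4 genes of U1 or U2 particle proteins, 3 SF3A genes, 6 SF3B genes, 8 Lsm ring genes, 5 other Lsm genes and the pseudogene copy of Snrpe.

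The spliceosome removes introns from pre-mRNA and is built from snRNPs, each a small nuclear RNA with its proteins. Sm proteins form a ring around the U1, U2, U4 and U5 RNAs, and a related Lsm ring sits on U6, while SF3A and SF3B belong to the U2 particle that recognises the branch site of the intron. T cells that leave rest grow and make more RNA, and activation changes the splicing of many T cell transcripts.

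RNA was taken from 18 libraries in 6 groups of 3. Naive 5CC7 CD4+ T cells, which carry a transgenic T cell receptor, came from mouse spleen and lymph node. The 4 activated groups spent 4 days with P13.9, a line of fibroblasts that presented the peptide pPCC, loaded at 0.01, 0.1, 1.0 or 10 µM. P13.9 cells alone were the remaining group. The study varied the peptide dose to vary the strength of the receptor signal. All T cell groups share the receptor transgene, and no activated group lacks P13.9 cells. The labels name neither the mouse strain nor its age, and leave unsaid if replicates were different mice or cultures, so p-values measure only the spread between these samples.

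Libraries were made from transcript 3′ ends, so a value is a normalized read count per gene that does not grow with transcript length. The 3 naive libraries held 27784, 53273 and 97752 reads of named genes, P13.9 libraries 201620 to 351978 and activated ones 156941 to 732987. A single read was worth 2.17 to 6.55 normalized counts in the naive libraries and 0.167 to 0.872 in the activated ones, so low naive values rest on very few reads. All 14 T cell markers were found and summed to 691 at 0.01 µM and to 1052 to 1125 in the other activated groups, beside 1051 in naive cells and 18.6 in P13.9, where Cd3e and Cd5 were at 0. The 11 fibroblast markers in the table, of 16 listed, summed to 597 in P13.9, 31.4 in naive cells, 162 (126 to 197) at 0.01 µM, and 43.3, 27.6 and 12.9 with rising dose. Scaled to P13.9, 5 of them gave an estimated P13.9 share of 34.4% ± 11.1 (SD, n = 3) at 0.01 µM and 1.71% ± 0.713 at 10 µM. These 5 were the markers that averaged 20 or more normalized counts in P13.9. Of the markers not used, Timp1 (14.5 against 11.1) and Col1a1 (1.10 against 0.370) had higher means at 0.01 µM than in P13.9. Lum was at 0 in P13.9 and at 3.63 in naive cells, while Col5a1, Col6a1 and Fbn1 were highest in P13.9. The formula for the share gave 2.97% ± 2.58 in the naive group, which held no P13.9 cells by its labels. An estimate from 74 genes without naive reads gave 23.7% ± 3.03 at 0.01 µM and 2.76% ± 0.508 at 10 µM. The size of the share thus depended on the genes used. The 6 myeloid markers summed to 98.8 (85.2 to 121) in naive cells and to 2.28 to 8.59 in the activated groups. Depth, presenting-cell RNA and myeloid RNA thus moved with the groups, and apart from the alternatives given below their part in the results was not tested.

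As a whole, the 35 genes made up 0.398% ± 0.0395 (SD, n = 3) of the reads in named genes in naive cells and 0.401% ± 0.00996 in P13.9. With rising dose the share was 0.635% ± 0.0197, 0.617% ± 0.0258, 0.610% ± 0.0230 and 0.697% ± 0.0456. Every activated library, from 0.589% upward, lay above every naive library, the highest of which was 0.435%. On the deposited scale, which uses median-of-ratios size factors, the same genes summed to 803 ± 139.4 in naive cells and to 798 ± 13.5, 831 ± 30.03, 808 ± 24.4 and 888 ± 54.1 with rising dose, and the naive libraries ran from 649 to 920. Of the 12 activated libraries 1, at 934, lay above that range. The choice of scale therefore decides whether the sum over all 35 genes differs between naive and activated cells, as the plot of the sums by library shows. On the deposited scale Sf3b1 alone held 125, 156 and 208 of the naive sums of 649, 839 and 920. It held 27.0 to 54.2 of the sums in activated libraries, so the naive sums there rest in part on this gene. Not all members moved in the same direction on either scale, and the changes of single genes, mostly on the deposited scale, follow. In bulk RNA, a change in the share of cells of a type and a change in RNA per cell cannot be told apart.

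**Figure D1:**
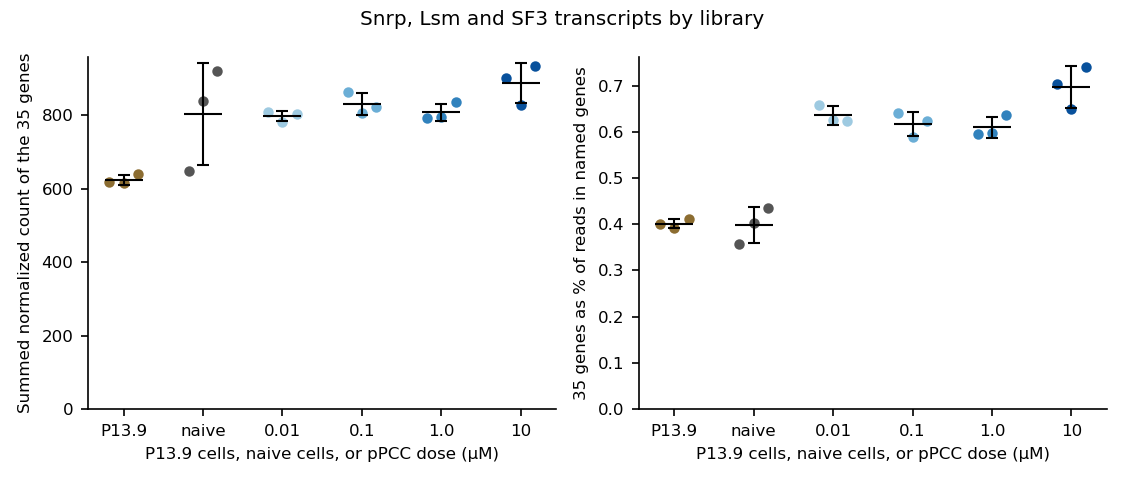
Summed level of the 35 genes in each library, as normalized counts (left) and as percent of the reads in named genes (right), for P13.9 cells, naive cells and cells activated at 4 doses (µM). Points are libraries and bars are the mean and SD of 3. Naive libraries span 649 to 920 on the left, with 1 activated library above that range, and lie below all of them on the right (0.356% to 0.435%).

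Against naive cells, most of the genes that changed at 10 µM were higher after activation, and 1 stood out in the other direction. Lsm4, Lsm2, Sf3b5, Sf3a2 and Sf3b2 rose, and Sf3b1, the branch-site protein of SF3B, fell from a mean of 163 ± 42.1 to 39.2 ± 1.21 normalized counts (SD, n = 3). The main test was limma on log2(normalized count + 1) over 7263 genes, called at an adjusted p below 0.05 (Benjamini-Hochberg over all genes tested). Since limma alone made false calls against the shallow naive libraries in simulated data, a gene is said here to have risen or fallen against naive cells only where edgeR's quasi-likelihood test on the recovered reads called it in the same direction too, a rule added after the data were seen. Of the 35 genes, 33 could be tested, and Lsm5 and Snrpn were too low (testing needed 3 or more of the 15 T cell libraries to reach a value of 5). A gene could pass that filter through its activated libraries alone.

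By this rule 15 of the 33 rose and 1 fell at 10 µM, or 45.5% and 3.03%, where 22.5% of all tested genes rose and 23.9% fell. At 1.0 µM 8 rose and 1 fell (20.5% and 21.9% of all genes), at 0.1 µM 13 rose and 2 fell (22.1% and 22%), and at 0.01 µM 10 rose and 2 fell (19.5% and 18.6%). The 4 comparisons share the same 3 naive libraries and are not independent of each other. With limma alone, which called 57.1%, 54.7%, 56.3% and 49.4% of all genes in these comparisons, the member counts were 15 higher and 5 lower, 9 and 5, 13 and 6, and 10 and 2. The members' median log2 difference at 10 µM was 0.86 (0.83 with the genes unread in naive cells at their lower bound), against -0.07 over all genes tested, and 24 of 33 were above 0. Scaling each library to its total reads moved the median of all genes at 10 µM to 0.46 and that of the members to 1.46. Limma then called 21 members higher and 1 lower, and of all 7263 genes 2674 higher and 1791 lower. Leaving out each naive library in turn gave 11 to 17 higher and 1 to 2 lower at 10 µM, 9 to 15 higher at 1.0 µM, 8 to 16 at 0.1 µM and 7 to 12 at 0.01 µM. Of all 7263 genes, 1310 to 1707 were then higher and 1295 to 1856 lower at 10 µM. At 1.0, 0.1 and 0.01 µM, 1174 to 1597, 1189 to 1672 and 954 to 1505 of all genes were higher. At 10 µM Snrpc was not called without naive library 1, Lsm3 and Lsm7 without library 2, and Lsm3, Lsm7, Snrpc and Snrpd2 without library 3. Without naive library 2, the count of risen genes at 1.0 µM was 15, and without naive library 3 that at 0.1 µM was 8. The count of fallen genes was 3 at 1.0, 0.1 and 0.01 µM without naive library 2, with Sf3b3 and Snrpa beside Sf3b1. Of all tested genes 1448, 1453 and 1242 fell in these fits.

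Across doses, 8 genes were higher than in naive cells at all 4 doses (Lsm2, Lsm4, Lsm6, Lsm10, Sf3a2, Sf3b2, Sf3b5 and Snrpb), and Sf3b1 was lower at all 4. Of these, Lsm2, Lsm4, Lsm6, Sf3b2, Sf3b5 and Sf3b1 kept their call at every dose whichever naive library was left out. The plot of differences by role shows these genes beside those that limma called and edgeR did not. How many of all tested genes were called at all 4 doses, or kept such calls, was not counted. Since the 4 comparisons share their naive libraries, the number of members with such calls has no background beside it.

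**Figure D2:**
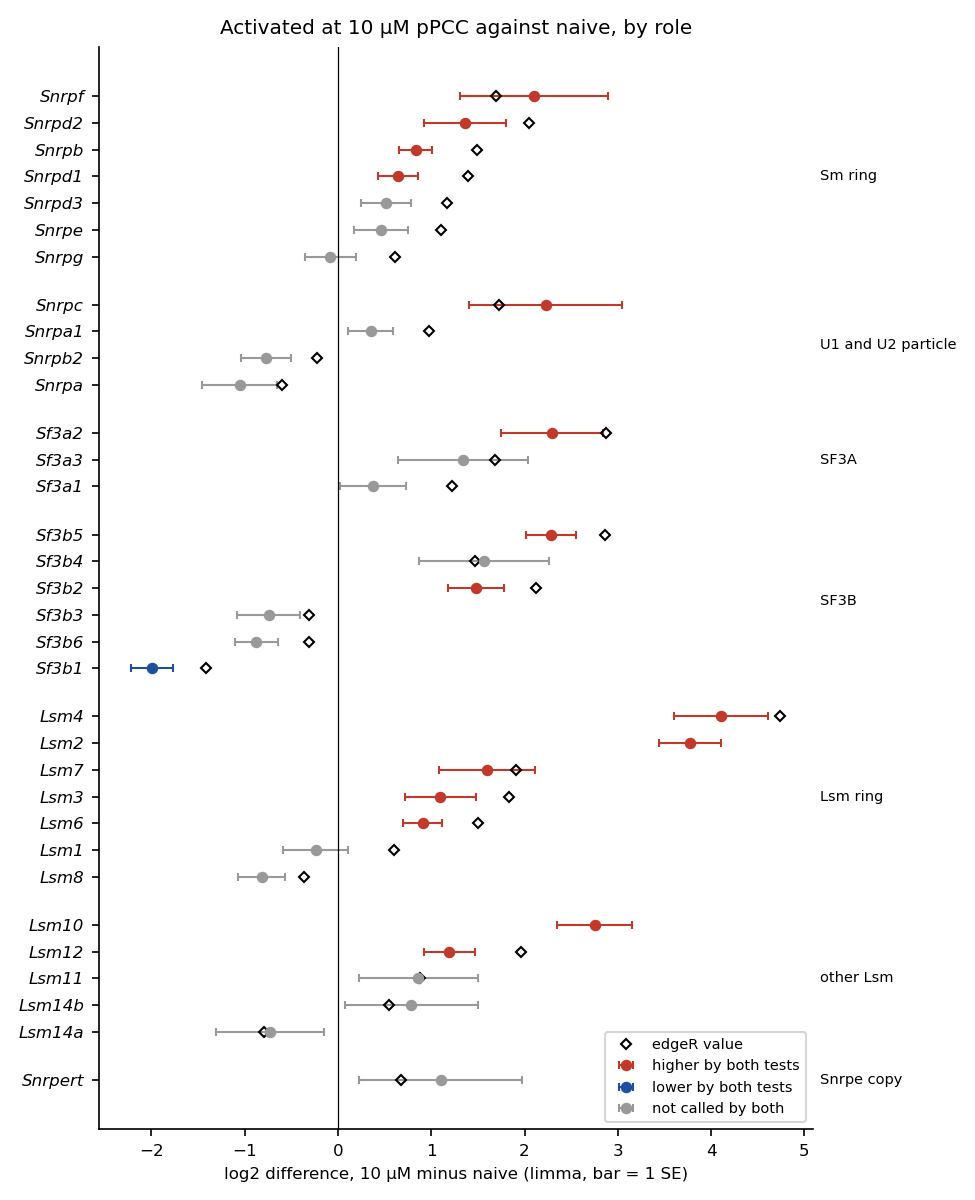
Difference between cells activated at 10 µM pPCC and naive cells for the 33 genes tested, grouped by role, on the log2(normalized count + 1) scale. Circles are limma differences with 1 SE (3 libraries a group), diamonds are edgeR values on recovered reads, left out for Lsm2 and Lsm10, which had no naive read. Red genes were higher and blue lower by both tests; 15 are red and 1, Sf3b1, is blue.

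The subunits of SF3B, which holds the branch site of the intron, went in opposite directions. Sf3b1 (chromosome 1, 54985169 to 55027501) encodes the large helical protein that clamps the paired branch site. It was at 125, 156 and 208 normalized counts in the naive libraries. It stood at 49.2, 54.2 and 54.0 at 0.01 µM, 46.0, 27.0 and 41.8 at 0.1 µM, 35.2, 48.5 and 47.0 at 1.0 µM, 38.7, 38.4 and 40.6 at 10 µM, and 29.1, 35.4 and 34.0 in P13.9. The 3 naive libraries thus stood far above the other 15, with no overlap. Sf3b1 differed from naive cells by -2.00 ± 0.22 (log2, SE) at 10 µM (limma, adjusted p = 2.3e-06; edgeR -1.41, adjusted p = 1.93e-06) and by -1.59 ± 0.22 at 0.01 µM (adjusted p = 3.04e-05). Over 16 alternative fits the 10 µM difference ran from -2.17 to -1.35, and each kept the call. Naive reads of Sf3b1 numbered 155 in all, so this difference does not rest on a handful of reads.

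Sf3b2 (chromosome 19, 5273921 to 5295457) encodes a scaffold subunit that holds Sf3b4. It was at 26.2, 11.7 and 26.0 in naive cells, 52.8, 53.3 and 36.8 at 0.01 µM, 53.7, 38.3 and 52.6 at 0.1 µM, 38.3, 74.2 and 45.8 at 1.0 µM, 59.9, 51.7 and 62.4 at 10 µM, and 43.0, 62.2 and 56.1 in P13.9. All activated libraries lay above all naive ones, and the naive group was alone in being low. Sf3b2 rose by 1.48 ± 0.30 at 10 µM (limma, adjusted p = 0.000696).

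Sf3b5 (chromosome 10, 13008450 to 13009183), the smallest of the subunits here by the length of its gene, was at 3.90 to 10.8 in naive cells, 9.28 to 13.8 in P13.9, 19.4 to 21.6 at 0.01 µM, 26.5 to 34.0 at 0.1 µM, 22.4 to 28.3 at 1.0 µM and 32.5 to 38.4 at 10 µM. It rose by 2.29 ± 0.27 at 10 µM (limma, adjusted p = 4.05e-06), and the activated groups overlapped neither naive cells nor P13.9. The ratio of Sf3b5 to Sf3b1 was taken within a library, with 1 added to each normalized count, so it still depends in part on the scaling. It averaged -4.40 ± 0.52 (log2, SD, n = 3) in naive cells, -1.30 ± 0.01 at 0.01 µM and -0.12 ± 0.12 at 10 µM. The other 3 subunits did not pass both tests at 10 µM. Sf3b6, which contacts the branch adenosine, went from 41.3 ± 9.79 (SD) to 21.8 ± 2.65 and was called by limma (-0.87 ± 0.23, adjusted p = 0.00495) but not by edgeR (adjusted p = 0.38). Sf3b3, a large scaffold, went from 60.0 ± 32.3 to 31.03 ± 3.03, and Sf3b4, an RNA-binding subunit, from 7.37 ± 7.84 to 14.0 ± 2.74. In naive cells Sf3b3 ranged from 23.4 to 84.5, so its groups overlapped, and it was lower at all 4 doses by both tests only when naive library 2 was left out.

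**Figure D3:**
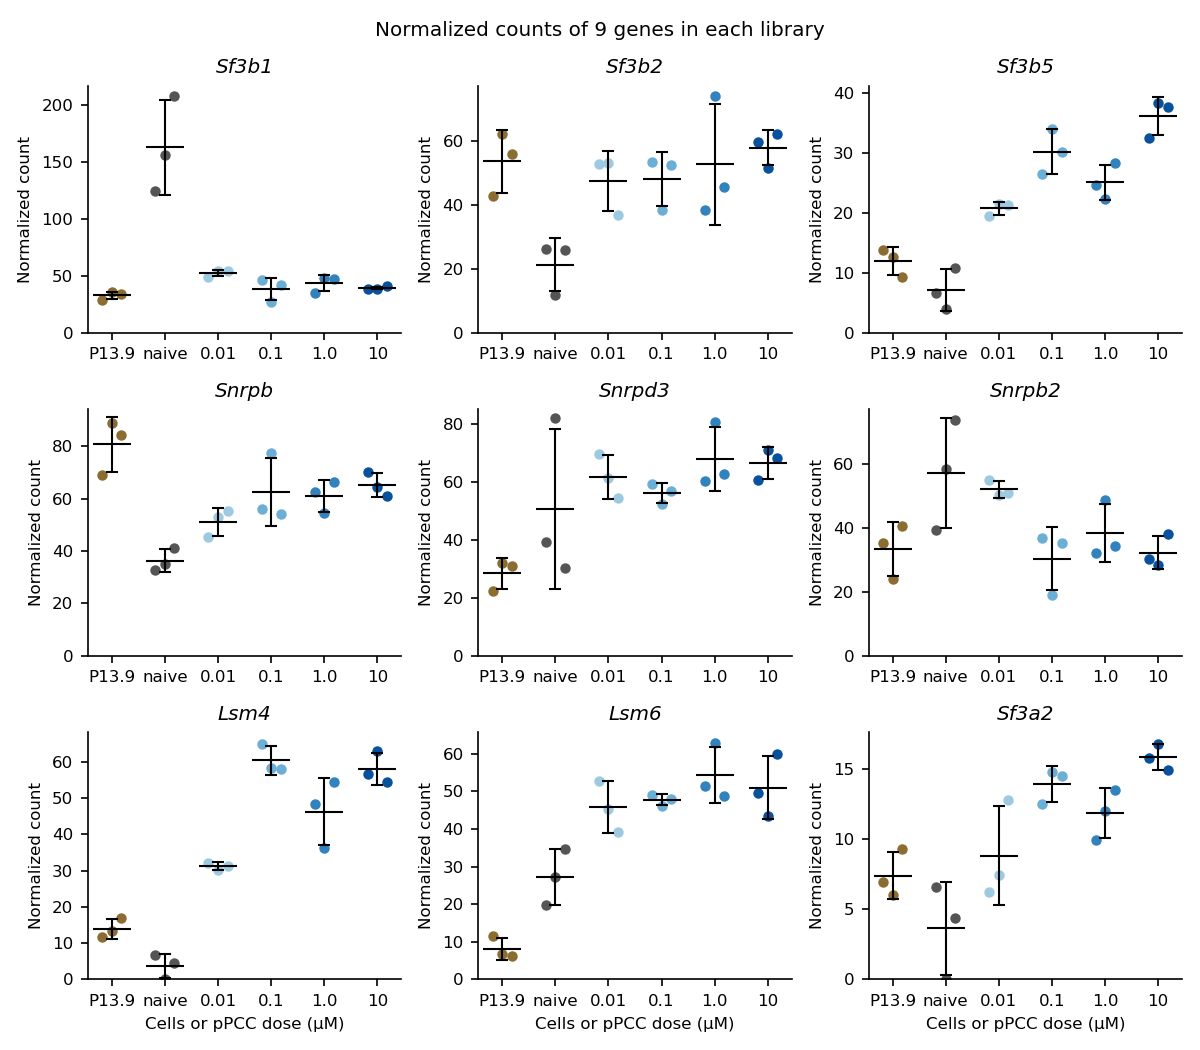
Normalized counts of 9 genes in each library of P13.9 cells, naive cells and cells activated at 4 doses of pPCC (µM). Points are libraries, bars the mean and SD of 3, and each panel has its own axis from 0. Sf3b1 is high in the 3 naive libraries (125 to 208) and at 27.0 to 54.2 in the activated ones, while Lsm4 is lowest in naive cells (0 to 6.55).

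SF3A, the trimer that joins the U2 particle before the branch site is engaged, changed through Sf3a2 (chromosome 10, 80798735 to 80804922). Sf3a2 was at 6.55, 0 and 4.33 in naive cells, 3 reads in all. It was at 6.20, 7.42 and 12.8 at 0.01 µM, 12.5, 14.8 and 14.5 at 0.1 µM, 9.97, 12.0 and 13.5 at 1.0 µM, 15.8, 16.8 and 14.9 at 10 µM, and 6.90, 6.02 and 9.28 in P13.9. The ratio of pooled values at 10 µM to naive was 4.55 with a 95% interval of 1.53 to 22.2 for counting error alone. At 0.01 µM it was 2.34 with an interval of 0.781 to 11.5, which reaches below 1. Sf3a2 rose at every dose by both tests, but at 0.01 µM not without naive library 2 or 3. Its call at 0.01 µM was lost in 5 of 15 alternative fits, and at 10 µM in 0 of 15. Sf3a1, the subunit that contacts U1, was at 19.7, 15.6 and 6.497 in naive cells, 15.4, 12.1 and 15.2 at 0.01 µM, 9.76, 14.8 and 17.8 at 0.1 µM, 22.0, 12.4 and 15.7 at 1.0 µM, 18.9, 16.4 and 15.1 at 10 µM, and 10.7, 17.4 and 17.7 in P13.9. All 6 groups of Sf3a1 overlapped. Sf3a3 was at 7.39 ± 7.84 in naive cells and 11.7 ± 1.25 at 10 µM and did not pass limma.

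Promoter sequences are shown for the member that fell at all 4 doses and for 4 members that rose at all 4, to set genes that moved apart beside each other. Of the 8 that rose, 5 had a listed promoter, and Lsm10 is not shown because its listed start lies over 30 bases from the 5′ end of the gene. The RefSeq table of GRCm38.p6 listed a start for 27 of the 35 genes, taken as the listed start nearest the 5′ end of the gene. Of the 27 starts, 19 lay at that end and 21 within 30 bases of it, and all 27 enter the motif counts. The start of Sf3b1 lay inside its annotated gene, which ends at 55027501, so part of its window does too. Each line below is the 250 bases before that start, 5′ to 3′ on the strand of the gene. Capitals mark CCGGAAG, a sequence bound by ETS factors, or GCATGCG, the core of the NRF1 site, on either strand. The regions are chr1:55027479-55027728 (minus strand) for Sf3b1, chr19:5295458-5295707 (minus) for Sf3b2, chr10:80798485-80798734 (plus) for Sf3a2, chr17:34981604-34981853 (plus) for Lsm2 and chr8:78821153-78821402 (minus) for Lsm6.
Sf3b1: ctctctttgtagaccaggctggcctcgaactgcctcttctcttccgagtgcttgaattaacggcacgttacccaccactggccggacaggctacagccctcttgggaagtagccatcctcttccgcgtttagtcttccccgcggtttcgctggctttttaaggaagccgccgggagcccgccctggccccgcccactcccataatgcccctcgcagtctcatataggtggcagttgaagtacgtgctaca
Sf3b2: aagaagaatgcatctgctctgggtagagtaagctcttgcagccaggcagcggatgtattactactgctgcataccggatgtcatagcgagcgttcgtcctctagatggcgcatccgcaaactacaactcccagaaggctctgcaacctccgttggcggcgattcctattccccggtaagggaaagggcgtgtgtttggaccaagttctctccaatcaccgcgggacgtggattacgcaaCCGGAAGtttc
Sf3a2: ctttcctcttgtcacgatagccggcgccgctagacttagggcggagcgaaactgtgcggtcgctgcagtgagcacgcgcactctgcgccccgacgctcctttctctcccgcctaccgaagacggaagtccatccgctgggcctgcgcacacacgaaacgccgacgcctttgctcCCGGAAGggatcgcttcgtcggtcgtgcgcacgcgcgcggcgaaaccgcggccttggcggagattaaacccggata
Lsm2: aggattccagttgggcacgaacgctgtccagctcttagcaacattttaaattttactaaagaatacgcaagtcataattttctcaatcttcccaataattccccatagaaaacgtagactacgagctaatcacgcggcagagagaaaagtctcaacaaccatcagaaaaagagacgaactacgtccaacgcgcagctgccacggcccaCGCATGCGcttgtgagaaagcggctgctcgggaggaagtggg
Lsm6: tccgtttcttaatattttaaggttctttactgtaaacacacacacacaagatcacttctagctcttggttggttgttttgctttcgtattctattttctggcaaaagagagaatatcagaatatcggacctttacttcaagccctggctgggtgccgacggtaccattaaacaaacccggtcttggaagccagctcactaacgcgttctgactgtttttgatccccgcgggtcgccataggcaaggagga

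The ETS letters began 11 bases before the start of Sf3b2 and 76 before that of Sf3a2. The NRF1 core began 41 and, on the other strand, 42 bases before the start of Lsm2, as overlapping matches. Neither was found in the window of Sf3b1, which fell, or of Lsm6, which rose. Of the 27 listed promoters, 10 held CCGGAAG (Lsm5, Sf3a1, Sf3a2, Sf3a3, Sf3b2, Sf3b3, Sf3b6, Snrpb2, Snrpc and Snrpg), or 37.04%, and so did 9.15% of 17492 protein-coding promoters. That group holds genes that rose and genes that did not. GCATGCG was in 4 (Lsm2, Lsm8, Lsm10 and Snrpn), or 14.81%, against 3.79%. The other motifs searched on both strands were CACGTG (1 of 27, against 6.65% of all), AAGATGGC, the YY1 site (0 of 27, against 1.5%), CCAAT (10 of 27, against 36.46%) and TATAAA (2 of 27, against 12.39%). These matches describe letters in the window, and the median GC content was 58.4% in the members' promoters and 55.2% in all.

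In the Sm ring, 4 of the 7 tested genes rose at 10 µM (Snrpb, Snrpd1, Snrpd2 and Snrpf) and none fell. Snrpb (chromosome 2, 130171636 to 130179382) encodes SmB and its splice form SmB′. It was at 32.8, 35.1 and 41.1 in naive cells, 45.2, 52.9 and 55.3 at 0.01 µM, 56.1, 77.6 and 54.3 at 0.1 µM, 62.5, 54.5 and 66.4 at 1.0 µM, 70.3, 64.4 and 61.1 at 10 µM, and 69.0, 88.9 and 84.4 in P13.9. The naive libraries were the lowest in the series, and P13.9 reached the highest values. Snrpb rose by 0.83 ± 0.18 at 10 µM (limma, adjusted p = 0.000927) and by 0.48 ± 0.18 at 0.01 µM (adjusted p = 0.0335). With the estimated P13.9 share removed, the 0.01 µM difference was -0.03, so there the direction turned, and 7 of the other 15 alternatives lost the call.

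Snrpd3 (chromosome 10, 75518042 to 75535440), the highest of the Sm genes over the T cell libraries, did not pass both tests. It was at 39.3, 82.0 and 30.3 in naive cells, 69.5, 61.4 and 54.3 at 0.01 µM, 59.1, 52.3 and 56.7 at 0.1 µM, 60.4, 80.6 and 62.7 at 1.0 µM, 60.4, 70.9 and 68.2 at 10 µM, and 22.2, 32.1 and 30.9 in P13.9. Naive library 2 exceeded every activated library, while the other two lay below all of them. Snrpd2 rose by 1.36 ± 0.44 (limma, adjusted p = 0.016), from 20.4 ± 14.3 (SD) in naive cells to 44.6 ± 3.73 at 10 µM. Snrpd1 rose by 0.64 ± 0.21 (adjusted p = 0.018), from 29.4 ± 2.93 to 46.4 ± 4.51. Snrpf, at 0, 19.5 and 19.5 in naive cells, was at 31.4 ± 5.37 at 10 µM (2.10 ± 0.79, adjusted p = 0.0337). Snrpe went from 21.9 ± 11.7 to 28.6 ± 7.23 and Snrpg from 13.3 ± 1.73 to 12.7 ± 3.13, neither past limma at 10 µM. Snrpe was called higher at 0.01 µM, but that call was lost in 7 of 16 alternative fits, and under the rule of both tests without naive library 1 or 3. Snrpert, annotated as a pseudogene copy of Snrpe, was at 13.7 ± 11.9 in naive cells and 16.3 ± 5.91 at 10 µM. Reads of Snrpe and Snrpert may have been split by the counting, so the level of each is uncertain.

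Snrpn encodes SmN, which takes the place of SmB in brain. It had 0 naive reads and 51 P13.9 reads, at 9.97, 9.36 and 10.6. In activated cells it was at 1.00, 1.16 and 2.36 at 0.01 µM, 0.610, 1.74 and 0 at 0.1 µM, 1.05, 1.34 and 0 at 1.0 µM, and 0.282, 0.343 and 0.383 at 10 µM. The levels in activated cells were highest where the estimated P13.9 share was highest, and P13.9 was at least 2.92-fold above naive cells, counting 3 reads over the naive group as the floor.

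Of the 4 genes of U1 or U2 particle proteins outside SF3A and SF3B (Snrpa, Snrpa1, Snrpb2 and Snrpc), Snrpc alone was called higher at 10 µM. Its protein stabilises pairing with the 5′ splice site. It went from 6.51 ± 11.3 (0, 19.5 and 0 in the naive libraries) to 11.8 ± 1.05, and naive library 2 exceeded all 3 libraries at 10 µM. The call was lost in 6 of 15 alternative fits, in which the difference ran from 1.13 to 3.68, and under the rule of both tests it was lost without naive library 1 or 3. Snrpb2 (chromosome 2, 143063069 to 143072052), which encodes the U2 protein U2B″, was at 39.3, 58.6 and 73.6 in naive cells, 55.1, 50.3 and 50.9 at 0.01 µM, 36.9, 19.2 and 35.2 at 0.1 µM, 32.0, 48.8 and 34.4 at 1.0 µM, 30.2, 28.4 and 38.1 at 10 µM, and 35.3, 24.1 and 40.7 in P13.9. All libraries at 0.01 µM lay above all those at the other 3 doses, and the naive libraries spread across both. Limma called Snrpb2 lower at 10 µM (-0.77 ± 0.27, adjusted p = 0.0242), and edgeR did not (-0.22, adjusted p = 0.518). Its U2 partner Snrpa1 was at 13.1, 11.7 and 17.3 in naive cells, 15.9, 13.91 and 18.9 at 0.01 µM, 13.7, 18.3 and 16.6 at 0.1 µM, 16.8, 10.7 and 13.2 at 1.0 µM, 18.4, 16.8 and 18.8 at 10 µM, and 9.97, 9.36 and 8.40 in P13.9. Only P13.9 lay apart for Snrpa1. Snrpa, which encodes the U1 protein that binds a stem-loop of U1 RNA, was at 19.7, 7.81 and 21.7 in naive cells and at 3.01 to 7.87 in activated cells. It fell at 0.01 µM (-1.69 ± 0.40, adjusted p = 0.00274) and at 0.1 µM (-1.55 ± 0.40, adjusted p = 0.00419) by both tests, and passed limma alone at 10 µM. By both tests it was not called at 0.1 µM without naive library 1, nor at either dose without naive library 3.

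The Lsm ring held Lsm4, with the largest limma difference of any member at 10 µM, and its subunits differed among themselves. At 10 µM, 5 of the 7 tested genes rose (Lsm2, Lsm3, Lsm4, Lsm6 and Lsm7) and none fell. Lsm4 (chromosome 8, 70673231 to 70678752) was at 6.55, 0 and 4.33 in naive cells, 32.2, 30.1 and 31.4 at 0.01 µM, 64.9, 58.4 and 58.0 at 0.1 µM, 48.3, 36.1 and 54.4 at 1.0 µM, 56.8, 63.0 and 54.6 at 10 µM, and 11.5, 13.4 and 16.8 in P13.9. Naive cells were lowest, P13.9 next and the lowest dose below all libraries of the other doses. The pooled ratio to naive was 9.09 (95% interval 3.09 to 44.3) at 0.01 µM and 16.6 (5.67 to 80.9) at 10 µM, on 3 naive reads. Lsm4 kept its call in 16 of 16 alternative fits at both doses.

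Lsm6 (chromosome 8, 78804868 to 78821152) was at 19.7, 27.3 and 34.6 in naive cells, 52.9, 45.2 and 39.1 at 0.01 µM, 49.1, 46.2 and 48.0 at 0.1 µM, 51.4, 62.9 and 48.9 at 1.0 µM, 49.7, 43.5 and 60.0 at 10 µM, and 11.5, 6.69 and 6.19 in P13.9. The activated libraries lay above naive cells, and P13.9 lay below every T cell library. Lsm6 rose by 0.91 ± 0.21 at 10 µM (limma, adjusted p = 0.00191) and by 0.75 ± 0.21 at 0.01 µM (adjusted p = 0.0084). Lsm2 had 0 naive reads and 156 reads at 10 µM (16.7, 8.91 and 13.6), at least 3.88-fold higher, and was at least 2.01-fold higher at 0.01 µM. Lsm3 rose from 18.6 ± 12.8 (SD) to 35.5 ± 6.26 at 10 µM and Lsm7 from 2.75 ± 2.39 to 7.99 ± 0.712, the latter on 3 naive reads with a ratio of 2.36 and an interval of 0.783 to 11.6 that reaches below 1.

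The 2 genes that tell the rings apart did not rise. Lsm8, the subunit of the nuclear ring on U6, was at 51.8 ± 21.9 in naive cells and, with rising dose, at 40.8 ± 1.75, 30.4 ± 2.94, 27.1 ± 5.46 and 27.4 ± 3.01. Limma called it lower at 10 µM (-0.82 ± 0.25, adjusted p = 0.0121) and edgeR did not (adjusted p = 0.251). Lsm1, the subunit of the cytoplasmic ring that acts in mRNA decapping, was at 15.5 ± 9.38 in naive cells and 11.9 ± 2.61 at 10 µM (-0.24 ± 0.35, limma, adjusted p = 0.576). Lsm5 had 2 naive reads and 5 to 23 reads in the other groups, too few to test.

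Of the other Lsm genes, Lsm10 and Lsm12 rose at 10 µM. Lsm10 and Lsm11 encode the Lsm proteins of the U7 particle, which trims histone pre-mRNA. Lsm10 had 0 naive reads and 38 to 69 in the activated groups, at least 1.71-fold higher at 10 µM. Lsm11 was at 4.63 ± 6.23 in naive cells and 5.24 ± 0.395 at 10 µM. Lsm12 was at 6.55, 11.7 and 6.497 in naive cells, 10.0, 13.2 and 15.9 at 0.01 µM, 16.2, 12.2 and 12.8 at 0.1 µM, 12.1, 14.0 and 12.6 at 1.0 µM, 19.2, 22.3 and 17.2 at 10 µM, and 5.37, 8.69 and 10.6 in P13.9. The 10 µM libraries of Lsm12 were above all the others, and it rose there by 1.19 ± 0.27 (limma, adjusted p = 0.00174). Lsm14a, which encodes a P-body protein of translational repression, was at 6.55, 54.7 and 67.1 in naive cells, 22.4, 20.9 and 16.5 at 0.01 µM, 17.99, 13.1 and 19.5 at 0.1 µM, 14.2, 13.4 and 17.8 at 1.0 µM, 20.9, 13.4 and 19.0 at 10 µM, and 28.4, 14.7 and 21.2 in P13.9. The first naive library, the one with the fewest reads, was low and the other two high, so the naive level of Lsm14a could not be settled. Without it, Lsm14a was lower at all 4 doses by both tests. Its relative Lsm14b was at 7.51 ± 6.52 in naive cells and 8.18 ± 0.638 at 10 µM.

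For other splicing genes at 10 µM against naive cells, counts are to be read beside the 22.5% of all tested genes that rose and the 23.9% that fell. Among 48 tested genes of the remaining snRNP and spliceosome core, 13 rose and 7 fell (27.1% and 14.6%). Prpf31, a protein of the U4/U6.U5 particle, rose (3.39 ± 0.42, limma, adjusted p = 7.31e-06), and Snrnp48, of the minor spliceosome, fell (-3.17 ± 0.36, adjusted p = 3.15e-06). Among 14 genes of snRNP assembly, 5 rose (35.7%) and 0 fell, Prmt5 (1.91 ± 0.29), which methylates Sm proteins, and Gemin5 (2.24 ± 0.44), which reads the Sm site of snRNAs, among them. Among 20 genes of SR proteins, which bind exons and set splice choice, and of their kinases, 1 rose and 9 fell (5% and 45%). The kinase gene Clk1 (-4.84 ± 0.32), Tra2b (-3.37 ± 0.25) and Tra2a (-2.65 ± 0.24) led those that fell. Among 20 hnRNP genes, 5 rose and 7 fell (25% and 35%). Among 7 decapping partners of the Lsm1 ring 1 rose and 1 fell (14.3% each), the latter being the helicase gene Ddx6 (-2.68 ± 0.20). The SR median was -0.69 by limma and -0.03 by edgeR, and the hnRNP median turned from -0.56 to 0.12, so medians of these lists depended on the scaling. The bar plot of these lists sets them beside all genes tested.

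**Figure D4:**
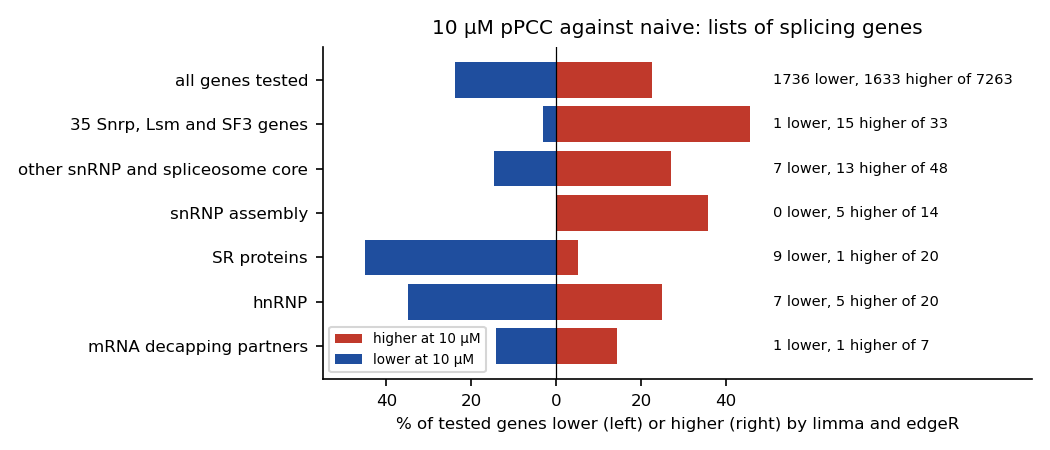
Percent of tested genes called higher (red, right) or lower (blue, left) at 10 µM pPCC than in naive cells by limma and edgeR in the same direction, for all genes, the 35 Snrp, Lsm and SF3 genes and 5 lists of other splicing genes. Counts stand at the right; 15 of 33 members were higher and 1 lower, and 1 of 20 SR genes was higher and 9 lower.

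Between doses fewer members were called than against naive cells. With limma on the 15 T cell libraries, none of the 33 was called in any of the 6 comparisons of doses, while limma called 8.15% of all genes for 10 against 0.01 µM, 5.59% for 0.1 against 0.01 µM, 4.3% for 1.0 against 0.01 µM, 0.0964% for 10 against 0.1 µM, 0.0826% for 10 against 1.0 µM and 0% for 1.0 against 0.1 µM. At an unadjusted p below 0.05, limma had 5, 3, 2, 0, 0 and 0 of the 33 members in these comparisons. Of all 7263 genes it had 1581, 1411, 1218, 371, 380 and 110, a larger share each time. EdgeR called 9 members higher and 2 lower at 10 against 0.01 µM, where it called 15.5% of all genes higher and 19.3% lower. It called 4 members for 0.1 against 0.01 µM (24% of all genes), 3 for 1.0 against 0.01 µM (22.3%) and 0 among the other 3 comparisons. The limma fit shares its spread with the naive libraries: for Lsm4 at 10 against 0.01 µM the SE was 0.50 with them and 0.14 in a fit of the activated libraries alone, added after the data were seen.

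At 10 against 0.01 µM, 6 members were called higher by each of 4 alternative fits (edgeR, DESeq2, limma with array weights and limma on the activated libraries alone), namely Lsm2, Lsm4, Lsm12, Sf3a2, Sf3b5 and Snrpd2. Their differences ran from 0.87 to 1.03 for Lsm4 (adjusted p from 1.42e-07 to 0.00111), 0.76 to 0.95 for Sf3b5 and 0.88 to 1.04 for Snrpd2. These fits use the same libraries and were compared after their results were known. Of all 7263 genes, edgeR called 1125 higher, DESeq2 1248, array weights 1426 and the activated libraries alone 789. How many of all genes were called higher by all 4 fits was not counted, so the 6 members have no background beside them. At 10 µM 12 members lay above 0.01 µM without overlap of the libraries and 4 below (Snrpb2, Sf3b1, Sf3b6 and Lsm8), as did 21.8% and 28.1% of all genes tested. Lsm4 was higher in all 4 fits also at 0.1 against 0.01 µM (0.930 to 1.013) and at 1.0 against 0.01 µM (0.53 to 0.65). Snrpg, at 8.77 to 11.6 at 0.01 µM, 16.6 to 23.5 at 0.1 µM and 14.4 to 25.2 at 1.0 µM, was higher in all 4 at both middle doses. At 10 µM it was at 9.25 to 15.3, which overlapped the lowest dose. Snrpb2 was lower in all 4 fits at 0.1 against 0.01 µM (-0.81 to -0.66) and Lsm8 at 1.0 against 0.01 µM (-0.59 to -0.48).

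Presenting-cell RNA moved with the dose. With the share estimated from fibroblast markers removed, limma called Snrpb higher at 10 than at 0.01 µM (0.86 ± 0.20, adjusted p = 0.0172, against 0.35 ± 0.18 and 0.266 without the removal and adjusted p from 0.00653 to 0.0946 in the 4 fits above). The difference of Lsm4 went from 0.87 to 0.52, that of Sf3b5 from 0.77 to 0.50, that of Lsm12 from 0.57 to 0.32 and that of Snrpb2 from -0.69 to -0.94. None of the 6 members called higher by all 4 fits was called after this removal (limma, adjusted p from 0.249 to 0.612). The same limma fit called none of the 33 members without the removal (smallest adjusted p = 0.0960). The missing calls therefore cannot show if P13.9 RNA made the calls of the 4 fits, which were not repeated after removal. Removing the share estimated from genes without naive reads gave 0.62 ± 0.19 for Snrpb, which was then not called (adjusted p = 0.0678), and 0.68 for Lsm4, 0.63 for Sf3b5, 0.44 for Lsm12 and -0.84 for Snrpb2. None of the 6 was called then either (limma, adjusted p from 0.207 to 0.500), as was so in this fit without any removal. The plot of dose differences gives, for each gene, the value after removal by fibroblast markers. The sample numbers in the descriptions put 10 and 0.1 µM in 1 run of numbers and the other groups in another. Within a run, limma's difference for Lsm4 was 0.53 ± 0.50 between 1.0 and 0.01 µM and -0.06 ± 0.50 between 10 and 0.1 µM, and that for Sf3b5 was 0.26 ± 0.27 and 0.25 ± 0.27.

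**Figure D5:**
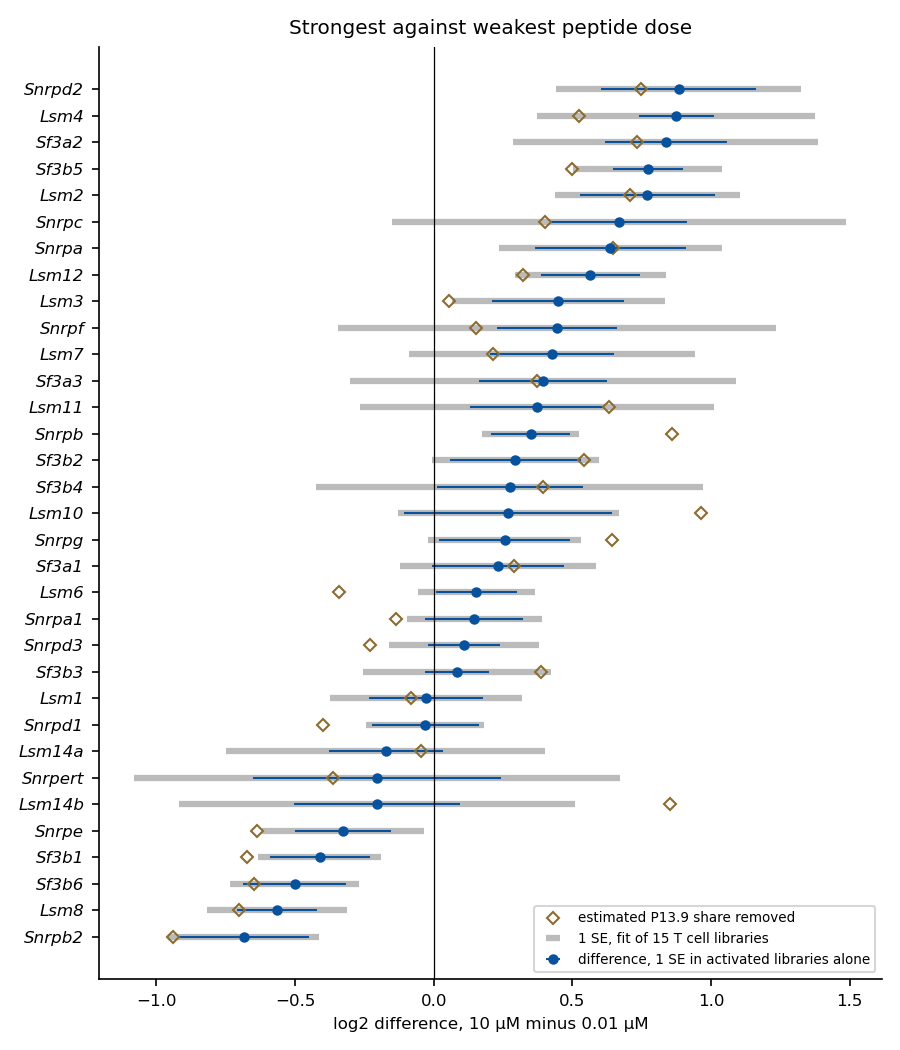
Difference between 10 µM and 0.01 µM pPCC for the 33 genes tested, on the log2(normalized count + 1) scale, 3 libraries a group. Grey bars are 1 SE in the limma fit of 15 T cell libraries and thin blue bars 1 SE in the 12 activated libraries alone. Diamonds are differences after the P13.9 share estimated from fibroblast markers was removed. Lsm4 lies at 0.87 and at 0.52 after removal, and Snrpb2 at -0.69 and -0.94.

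P13.9 cells, compared over 18 libraries, 8178 genes and 34 members, had lower levels of 10 of these RNAs than T cells activated at 10 µM. Against 10 µM, limma called 1 member higher, Snrpn, and 10 lower, with 26.4% of all genes higher and 15.6% lower. The lower ones were Lsm2, Lsm3, Lsm4, Lsm6, Lsm12, Sf3b5, Snrpa1, Snrpd1, Snrpd2 and Snrpd3. Lsm6 differed most clearly (-2.55 ± 0.24, adjusted p = 1.37e-07), followed by Sf3b5 (-1.54 ± 0.27, adjusted p = 0.000153). Against naive cells, where limma called 59% of all genes, 7 members were higher by both tests and 3 lower (25% and 22.3% of all genes). Sf3b1 (-2.25 ± 0.22), Lsm6 (-1.64 ± 0.24) and Snrpa (-1.68 ± 0.39) were lower, and Snrpb (1.13 ± 0.18), Sf3b2 (1.36 ± 0.29), Lsm4, Lsm14b, Lsm2, Lsm10 and Snrpn higher. Sf3b1 was thus lower than in naive T cells in P13.9 as well as in each activated group.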

How the data were processed

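The deposited table held DESeq2-normalized read counts per gene, a signal on the scale of counts divided by size factors. Per the submitters' processing notes, the authors used FastQC 0.11.8, STAR 2.6.1d, HTSeq 0.9.1, DESeq2 and mm10. Dividing each library by the value of 1 read returned whole reads for all but 1 of 284544 deposited signal values (tolerance 1e-05 reads), and 111 unnamed of 15808 features were left out. Unnamed features held 1.94% to 15.7% of a library's reads. Protocols state a higher depth than the reads counted here.

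Genes reaching a value of 5 in 3 or more libraries were tested with limma 3.58.1 (R 4.3.3) on log2(value + 1), with Benjamini-Hochberg adjustment over all genes and a threshold of 0.05. EdgeR 4.0.16 and DESeq2 1.42.0 were run on the recovered reads as alternatives, with other filters, scalings, array weights, left-out libraries and removal of an estimated P13.9 share. Scripts were tested on simulated data. Tables used Python 3.11.15. Ratios on 3 or fewer naive reads carry 95% intervals for counting error only, and genes without naive reads a bound at 3 reads over the group.

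The members and lists were chosen with earlier results of these data known. The rule calling genes by both tools, the fit of activated libraries alone, total-read scaling, the P13.9 share from genes without naive reads, the comparison of 4 fits, the motifs and the promoters shown were chosen after seeing the data. Every member may be named. Values in every library were given for the 2 most abundant of each role and for members that the results turn on, and from other lists genes among the 4 with the smallest adjusted p.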

Additional observations from a re-analysis of the deposited data

How the results depend on the processing

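Numbers here are members called by limma unless another tool is named. Against naive cells, requiring a mean of at least 20 left 17 members and gave 13 (main 20) at 10 µM, 9 (main 14) at 1.0 µM and 12 (main 19) at 0.1 µM. Of the 1438 genes left by that filter, 970, 936 and 952 were called. Array weights gave 9 at 1.0 µM, 12 at 0.1 µM and 7 at 0.01 µM (12 in the main result), total-read scaling gave 22 at 1.0 µM and 21 at 0.01 µM, and limma with edgeR gave 9 at 1.0 µM. Of all 7263 genes, array weights called 2954, 3027 and 2635 at these doses, and total-read scaling 4239 and 4053. Leaving out 1 library gave 14 to 24 at 10 µM, 12 to 23 at 1.0 µM, 11 to 24 at 0.1 µM and 8 to 19 at 0.01 µM, the highest each without naive library 2, and 10 to 18 for P13.9 against naive, 9 to 10 for P13.9 against 10 µM and 0 to 0 between doses. Over all genes these fits called 3656 to 4783, 3427 to 4630, 3582 to 4719 and 2937 to 4328 for the doses against naive. For P13.9 they called 4307 to 5302 against naive and 2805 to 2950 against 10 µM. Between doses the main result was 0. For 10 against 0.01 µM edgeR gave 11, DESeq2 12, array weights 15, the activated libraries alone 7 and P13.9 removal by fibroblast markers 1 (by genes without naive reads 0). Of all 7263 genes the same fits called 2528, 2330, 3334, 1954 and 625 (484). For 0.1 against 0.01 µM the fits gave, in that order, 4, 5, 7, 4 and 3 members, and 1746, 1545, 2340, 1661 and 532 of all genes. Quantile and total-read scaling gave 1 member each there, and 703 and 524 of all genes. For 1.0 against 0.01 µM the fits gave 3, 3, 6, 3 and 1 members, and 1623, 1438, 2060, 1374 and 391 of all genes. P13.9 against 10 µM (11) gave 21 with edgeR, 19 with DESeq2, 7 with a mean of at least 20, 17 with quantile scaling and 19 with array weights. Over all genes these called 4771, 4521, 844, 3814 and 5008, of 8178 tested, or 1466 with a mean of at least 20. Snrpb at 0.01 µM against naive turned to -0.0325 with the P13.9 share removed. Member calls kept under every alternative were 9 of 20 at 10 µM, 7 of 14 at 1.0 µM, 7 of 19 at 0.1 µM and 6 of 12 at 0.01 µM. How many of all tested genes kept their calls was not counted, so these member counts have no background beside them. The causes were not tested. Sample letters did not pair the activated libraries: correlations of deviations ran from -0.20 to 0.20 over 18 same-letter pairs and from -0.25 to 0.29 over 36 others. With the replicate block among activated libraries, the members called were 7, 6 and 2 for 10, 0.1 and 1.0 against 0.01 µM. Of all 7263 genes, 1739, 1427 and 1175 were called. For comparisons with naive or P13.9 cells, no paired analysis was possible because those columns carry numbers where the labels carry letters. Naive depth limits every comparison with those cells.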
